A study of Homo sapiens with 6 samples.

Results

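hsa-miR-148a-3p and hsa-miR-148b-3p, written below without the species prefix, are 2 mature human microRNAs (miRNAs) with the same seed, the bases by which a miRNA pairs with its target mRNAs. They were identified by name among the 798 human miRNAs of a NanoString nCounter panel, and they had been chosen by their fall in these same libraries, so their difference between the groups is described here without a test. The 6 libraries were made from total RNA of A549, an established human lung adenocarcinoma cell line. All cells received 100 pmol of siRNA with the DharmaFECT transfection reagent and were collected after 72 h. The siRNA was a scramble control in 3 libraries (siSCR) and was directed against APE1 in the other 3 (siAPE1). APE1, the product of APEX1, is an endonuclease that opens DNA at abasic sites during base excision repair. The silencing was transient, each group rests on 1 cell line and 1 siRNA, and APEX1 mRNA is not among the panel's targets, so its level was not read in these libraries.

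miRNAs are short RNAs that are released from hairpin precursors by the nucleases Drosha and Dicer and then guide Argonaute proteins to target mRNAs. The miR-148/152 family has 3 members, miR-148a, miR-148b and miR-152, and is best known for the repression of mRNAs of DNA methyltransferases, including DNMT1 and DNMT3B, and of HLA-G. miR-148a is a major miRNA of liver and pancreas, and the family is often described as lowered in carcinomas.

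The 3 mature sequences are shown because the near identity of the members bears on what their probes could tell apart. They are RefSeq sequences on GRCh38.p14, written 5′ to 3′ with the seed (bases 2 to 8) in capitals.
miR-148a-3p: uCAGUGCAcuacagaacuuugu
miR-148b-3p: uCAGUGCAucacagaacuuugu
miR-152-3p: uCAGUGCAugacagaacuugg
Counted from 1 at the 5′ end, miR-148a-3p and miR-148b-3p were identical at 20 of 22 bases, and the substitutions from miR-148a-3p to miR-148b-3p were C9U and U10C. Both lie directly after the seed. From miR-148a-3p to miR-152-3p the substitutions were C9U, U10G and U20G, with 18 of 21 compared bases identical. Of 777 panel entries that named a single miRNA, 688 matched a mature sequence, and the 7 seed letters CAGUGCA stood at bases 2 to 8 in these 3 miRNAs alone.

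The precursors of the members differ far more than their mature strands. Their hairpins are shown, with the mature strand in capitals, because it is this RNA from which the mature miRNA is cut.
MIR148A: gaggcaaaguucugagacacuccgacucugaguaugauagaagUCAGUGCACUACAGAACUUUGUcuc
MIR148B: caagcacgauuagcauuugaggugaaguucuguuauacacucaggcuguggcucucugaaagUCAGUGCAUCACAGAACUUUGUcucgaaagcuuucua
The RefSeq hairpin of miR-148a has 68 bases and that of miR-148b 99 bases, and in both the measured strand is the 3′ arm. miR-148a-3p is encoded at chr7:25949922-25949943 on the minus strand, in the span of no protein-coding gene. The nearest one, NFE2L3, lies 202.2 kb away, and the span of the non-coding LOC105375199 covers the hairpin. miR-148b-3p is encoded at chr12:54337278-54337299 on the plus strand, within the span of COPZ1, a subunit of the coatomer that coats Golgi vesicles. miR-152-3p is encoded at chr17:48037174-48037194 on the minus strand, within the span of the paralog COPZ2. The annotation used gives gene spans only, so exon and intron cannot be told apart here.

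The libraries held between 312152 and 488407 counts, with 370087 to 488407 in siSCR and 312152 to 331524 in siAPE1. A scaled count is the raw count divided by the library's scaling factor, which was taken from the positive controls and the housekeeping mRNAs and lay between 0.817 and 1.34. The background limit of a library was the mean plus 2 SD of its 8 negative controls, between 53.1 and 75.8 raw counts. In every library 1 negative control, NEG_C, was the highest, and without it the limit lay between 27.7 and 42.7. A miRNA was tested when it was above the limit from all 8 controls in at least 3 of the 6 libraries, which 152 miRNAs were. Of 6 epithelial marker miRNAs, 3 (miR-200a-3p, miR-200b-3p and miR-200c-3p) were above the limit in at least 1 library. So were 1 of 4 blood markers, miR-142-3p, and 1 of 3 endothelial or stromal markers, miR-126-3p, while miR-122-5p of liver, miR-216a-5p and miR-217 of pancreas and the muscle and neuron markers were not in any.

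In counts that still held background, miR-148a-3p was the miRNA with the steepest fall among the 152 tested. Replicates 1 to 3 of siSCR gave 350, 447 and 317 raw counts and those of siAPE1 gave 46, 51 and 38. All siAPE1 counts lay far below all siSCR counts, and the groups did not overlap. The 95% Poisson intervals, which cover counting error only, reached down to 283 in the lowest siSCR library and up to 67.1 in the highest siAPE1 library. After scaling, siSCR had 310, 333 and 359 counts against 48.0, 53.4 and 46.5 in siAPE1, or 334 ± 24.3 and 49.3 ± 3.63 (mean ± SD, n = 3 per group). The group means thus differed by 285 scaled counts, a fall by 85.2%, while the SD within a group was at most 24.3. The fold of siSCR over siAPE1 was 6.77 for the means and between 5.81 and 7.72 for single pairs of libraries. The edgeR log2 fold change was −2.75 ± 0.20 (SE), and the next in the order, miR-487b-3p of the imprinted 14q32 cluster, had −1.48 ± 0.19.

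In siAPE1 the counts of miR-148a-3p had reached the range of the negative controls. All 3 siSCR libraries were above their limit for miR-148a-3p and 0 of the 3 siAPE1 libraries were. In each siAPE1 library 1 of the 8 negative controls, again NEG_C, was at or above miR-148a-3p, and in siSCR none was. With the limit computed without NEG_C, an alternative chosen after seeing the data, 2 of the 3 siAPE1 libraries were above it. Against the limit in place of the siAPE1 counts, the fall of miR-148a-3p was at least 4.48-fold. When NEG_C was left out, the limit stood in for the count of siAPE1 replicate 3 only. The fold of 6.52 found in this way rests mostly on the counts themselves. With the mean of the negative controls subtracted, siSCR kept 288, 311 and 329 scaled counts and siAPE1 15.4, 24.0 and 12.8. Here the fold of the means rose to 17.8 and that of single pairs of libraries ran from 12.0 to 25.6, so that the size of the fall depended on how background was treated while its direction did not.

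miR-148b-3p fell by less and stayed well above background throughout. It had 588, 654 and 375 raw counts in siSCR against 235, 262 and 248 in siAPE1, and all 6 libraries were above their limit. Scaled, siSCR had 521, 488 and 424 counts and siAPE1 245, 274 and 303. The groups did not overlap, with siSCR replicate 3 the lowest of the control libraries. The means were 478 ± 49.1 and 274 ± 29.0 (SD, n = 3 per group), a difference of 203 scaled counts or a fall by 42.6%. The fold of siSCR over siAPE1 was 1.74 for the means and 1.40 to 2.12 for single pairs of libraries, and 1.87 after subtraction of the negative-control mean. The edgeR log2 fold change was −0.80 ± 0.17 (SE), at place 27 of 152. The neighbours in this order were miR-96-5p, a member of the miR-183 cluster, with −0.80 ± 0.18 and miR-377-3p of the 14q32 cluster with −0.79 ± 0.18. They were picked by their place beside miR-148b-3p, so their closeness to it is no result.

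**Figure D1:**
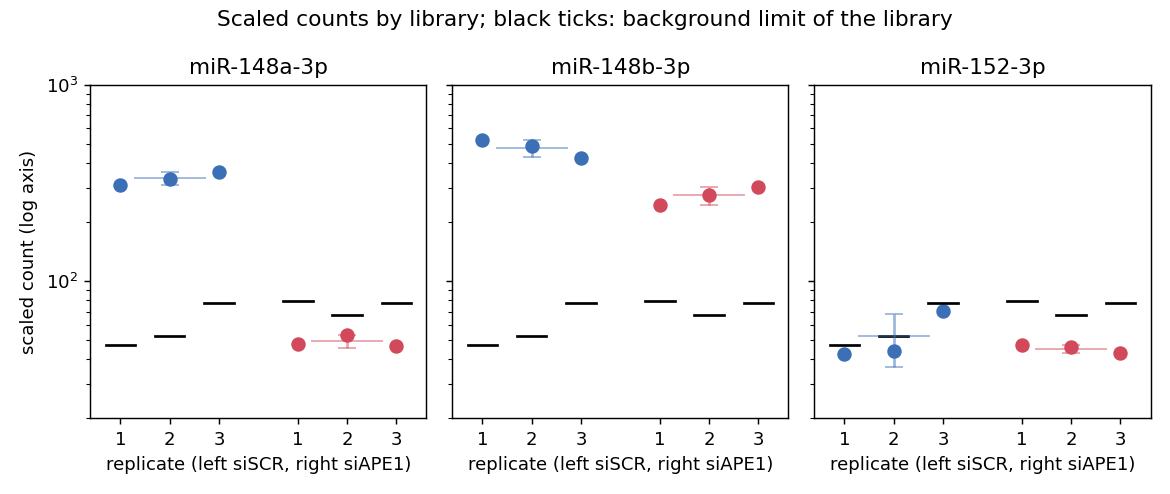
Scaled counts (log axis) of miR-148a-3p, miR-148b-3p and miR-152-3p in the 3 siSCR (blue) and 3 siAPE1 (red) libraries, each point being 1 library. Lines with error bars are the group mean ± SD and black ticks are the background limit of the library: miR-148a-3p is above the ticks in siSCR and below them in siAPE1, miR-148b-3p is above them in all 6 libraries, and miR-152-3p is below them in all 6.

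The third miRNA of this seed, miR-152-3p, was not above the limit in any library and was therefore not tested. Its raw counts of 48, 59 and 62 in siSCR stood against 45, 44 and 35 in siAPE1. The scaled counts were 42.5, 44.0 and 70.2 against 47.0, 46.1 and 42.8, or 52.2 ± 15.5 and 45.3 ± 2.19 (mean ± SD, n = 3 per group). Its groups thus overlapped in scaled counts and did not overlap in raw counts. With the negative-control mean subtracted, siSCR had 20.8, 22.2 and 40.6 scaled counts and siAPE1 had 14.4, 16.6 and 9.17, again without overlap, and the fold of the means was 2.08, or 1.25 to 4.42 for single pairs of libraries. With the limit computed without NEG_C, 3 siSCR and 2 siAPE1 libraries were above it. Whether miR-152-3p differed between the groups therefore depended on the treatment of background and scaling, and no call is made for it. The opposite strand of its hairpin, miR-152-5p, had 10 to 17 raw counts in all 6 libraries, below the mean of the negative controls.

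With the scaling used here, the typical tested miRNA was also lower in siAPE1. Over the 152 tested, the middle value of the log2 fold change was −0.34, which is a fall by 20.9%. At an adjusted p of 0.1 in edgeR, 77 tested miRNAs were lower in siAPE1 (50.7%) and 15 were higher (9.87%), and without adjustment 90 had a p under 0.05. This balance rests on the scaling by controls and on the filter on low values. With TMM, which scales a library by its miRNAs, the median was 0.02, with 46 called lower and 47 higher. With the scaling by controls but no filter, the median over all 798 miRNAs was 0.22, with 74 called lower and 78 higher. With the limit computed without NEG_C, the median was −0.04, with 80 called lower and 40 higher. For 80 of the 152 tested miRNAs (52.6%) all siAPE1 scaled counts lay below all siSCR scaled counts, as they did for both members. Non-overlap was thus common on the panel. miR-148a-3p passed the filter on low values through its siSCR libraries alone, and miR-148b-3p through all 6. Relative to the median, the log2 fold change was −2.42 for miR-148a-3p and −0.46 for miR-148b-3p.

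**Figure D2:**
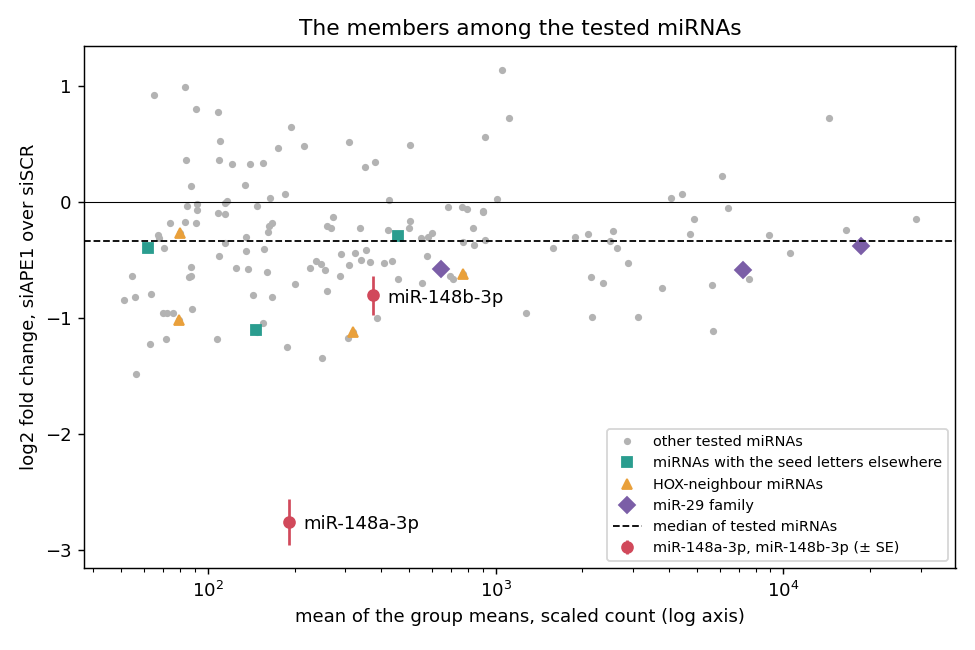
Place of the members among the 152 tested miRNAs: the log2 fold change of siAPE1 over siSCR is plotted against the mean of the group means in scaled counts (log axis). Squares, triangles and diamonds are the 3 lists described further on, the dashed line is the median of −0.34, and the error bars of the members are SE. In these counts, from which no background was subtracted, miR-148a-3p at −2.75 is apart from all other points while miR-148b-3p at −0.80 lies among them.

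The rank of a miRNA within its own library needs no scaling factor. By raw count miR-148a-3p stood at places 73, 72 and 75 of 798 in siSCR and at 195, 158 and 224 in siAPE1. miR-148b-3p stood at 53, 57 and 67 in siSCR and at 70, 67 and 69 in siAPE1, so that the ranks of the groups touched at 67. The siAPE1 ranks of miR-148a-3p are places among probes that were not above background, so the gap between its groups has no exact size. As a share of all miRNA counts, miR-148a-3p made up 0.131%, 0.135% and 0.123% in siSCR and 0.0236%, 0.0242% and 0.0193% in siAPE1. For miR-148b-3p these shares were 0.219%, 0.198% and 0.146% against 0.121%, 0.124% and 0.126%.

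The ratio of the members within a library is likewise free of scaling, and was used for the difference between the groups only. The raw count of miR-148a-3p divided by that of miR-148b-3p was 0.595, 0.683 and 0.845 in siSCR and 0.196, 0.195 and 0.153 in siAPE1. It was lower in every siAPE1 library than in any siSCR library, with means of 0.708 ± 0.127 and 0.181 ± 0.0242 (SD, n = 3 per group), a 3.89-fold difference between geometric means. With the negative-control mean subtracted the ratio was 0.578, 0.669 and 0.834 in siSCR and 0.0724, 0.0978 and 0.0476 in siAPE1, a 9.85-fold difference. The members thus did not fall in proportion, in either form of the counts. Whether each probe also counts some of the other's miRNA, from which it differs at 2 bases, was not tested.

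**Figure D3:**
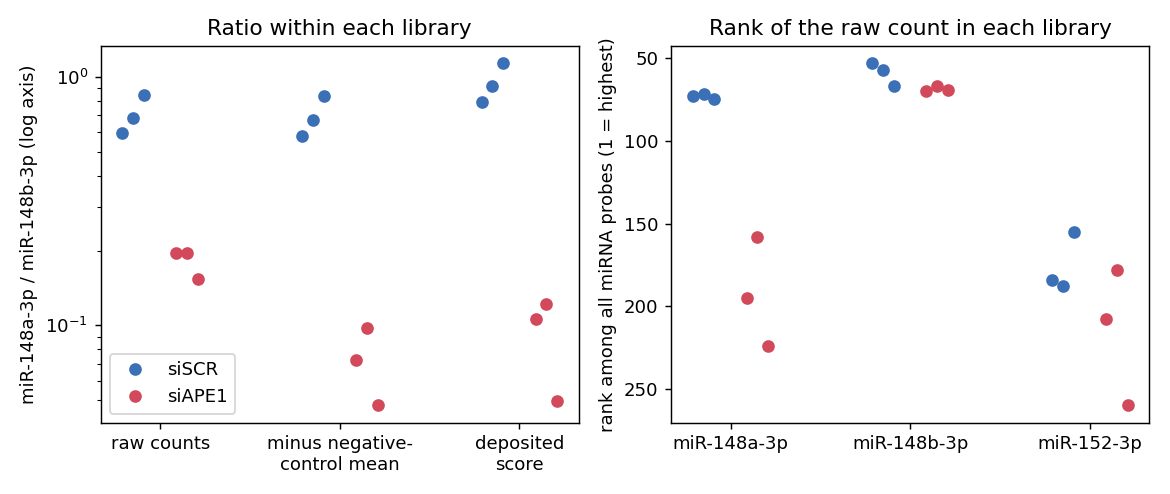
Left, ratio of miR-148a-3p to miR-148b-3p in each library (log axis) in raw counts, in counts minus the negative-control mean and in the deposited scores; the siSCR libraries (blue) lie above the siAPE1 libraries (red) in all 3. Right, rank of the raw count among 798 miRNAs, with 1 as the highest, for miR-148a-3p (72 to 75 against 158 to 224), miR-148b-3p (53 to 67 against 67 to 70) and miR-152-3p, whose groups overlap.

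Replicate spread was compared with counting error for the members. The coefficient of variation of miR-148a-3p over 3 libraries was 7.27% in siSCR and 7.37% in siAPE1, while counting error alone gave 5.27% and 14.9%. That of miR-148b-3p was 10.3% and 10.6%, against 4.37% and 6.36% from counting. These values describe 3 libraries each, and the spread was not tested against counting error.

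The direction of both falls did not depend on the scaling, while their size did. Under each of 5 scalings and in the unscaled counts, the 3 siAPE1 values of either member lay below the 3 siSCR values. With TMM the log2 fold change was −2.39 for miR-148a-3p and −0.46 for miR-148b-3p. The gap of miR-148b-3p was narrow there, at 315 in the highest siAPE1 library against 338 in the lowest siSCR library. Across the scalings miR-148a-3p was first in the order. Once background was subtracted it was second to miR-487b-3p, at −4.20 against −5.41, as it was in the deposited table, at −4.53 against −5.91. None of these sizes is exact, since both miRNAs were near background in siAPE1.

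**Figure D4:**
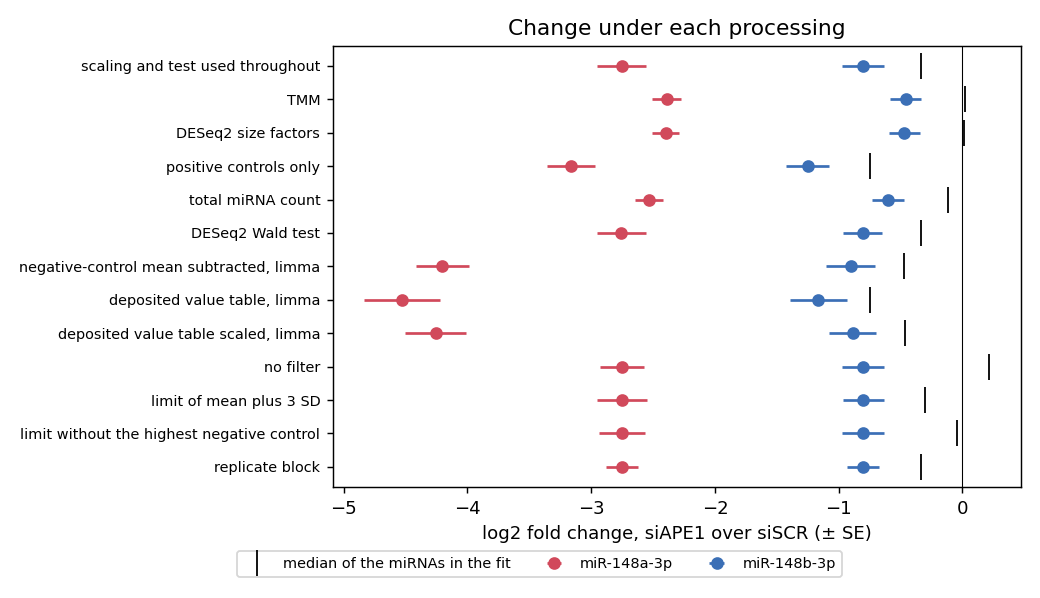
log2 fold change (± SE) of miR-148a-3p (red) and miR-148b-3p (blue) under each processing, with a black tick at the median of the miRNAs in the fit. miR-148a-3p lies between −4.53 and −2.39 and miR-148b-3p between −1.25 and −0.46, and both stay left of the median in all settings.

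Other miRNAs that hold the letters of the seed at another place were examined as a list, since a shift by 1 base changes the pairing with targets. Of 5 such miRNAs on the panel, 3 were tested and 2 of these called lower, where 50.7% of all tested miRNAs were. For the 2 that were called, the mature sequences are shown with these letters in capitals, at the first 7 bases.
miR-301a-3p: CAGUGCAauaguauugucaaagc
miR-130b-3p: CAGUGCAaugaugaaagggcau
Both belong to the miR-130/301 family. miR-301a-3p (chr17:59151149-59151171) had raw counts of 250, 242 and 178 in siSCR and 81, 90 and 84 in siAPE1, without overlap. It fell from 201 ± 20.5 to 93.9 ± 9.10 scaled counts (SD, n = 3 per group; log2 fold change −1.10 ± 0.19, edgeR adjusted p = 6.81e-08). miR-130b-3p (chr22:21653354-21653375) had scaled counts of 52.3, 67.9 and 90.5 in siSCR and 43.9, 39.8 and 77.1 in siAPE1, with overlapping groups. Like miR-148a-3p, it entered the tested set through its siSCR libraries alone. It passed at −0.39 ± 0.19 (edgeR adjusted p = 0.0730) and was above the limit in 0 of 3 siAPE1 libraries. Among other settings, the call was lost with TMM (adjusted p = 0.889) and with the DESeq2 test (0.215). It was also lost on leaving out siSCR replicate 2 (0.146), siSCR replicate 3 (0.425), siAPE1 replicate 1 (0.353) or siAPE1 replicate 2 (0.416). Over all alternatives the adjusted p of miR-130b-3p ranged from 0.000104 to 0.889. miR-106b-5p of the miR-17 family had −0.29 ± 0.17 (edgeR adjusted p = 0.126), which turned to 0.07 under TMM and passed in 5 other settings, with adjusted p of 6.83e-05 with positive controls only, 0.0137 in the deposited table, 0.0272 with the replicate block, 0.0522 without siAPE1 replicate 3 and 0.0929 with the DESeq2 test. miR-139-5p and miR-301b-3p were not tested. The 3 tested miRNAs had a median log2 fold change of −0.39 beside −0.34 over all 152.

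The genes of the family lie on chromosomes that hold HOX clusters, at 281.2 kb from HOXC4 for MIR148B and 491.3 kb from HOXB1 for MIR152. miRNAs encoded within HOX clusters, which are known to repress HOX mRNAs, were therefore listed beside them. Of 7 on the panel 4 were tested, 3 were called lower and 0 higher, with a median log2 fold change of −0.82, where 50.7% of all tested miRNAs were called lower and their median was −0.34. Of these, miR-196b-5p passed the filter on low values through its siSCR libraries alone. miR-196a-5p fell from 438 ± 30.4 to 203 ± 54.3 scaled counts (n = 3 per group; log2 fold change −1.11 ± 0.17, edgeR adjusted p = 3.47e-09). Its paralog miR-196b-5p fell from 106 ± 11.2 to 52.2 ± 3.67 (n = 3 per group; −1.02 ± 0.18, edgeR adjusted p = 1.45e-07), with 0 of 3 siAPE1 libraries above the limit. Whether the probes of miR-196a-5p and miR-196b-5p share signal was not tested, so their calls may not be separate. miR-10a-5p, encoded in the HOXB cluster, fell from 935 ± 111 to 610 ± 93.1 (n = 3 per group; −0.62 ± 0.17, edgeR adjusted p = 0.000759). miR-10b-5p, a near-identical paralog whose signal may not be separate from that of miR-10a-5p, did not pass, at −0.26 ± 0.17 (edgeR adjusted p = 0.181), and had 0.10 under TMM. It passed with positive controls only (−0.67, adjusted p = 0.000703), with background subtracted (−0.65, 0.00708), in the deposited table (−0.83, 0.00319) and in that table scaled (−0.56, 0.0200), so that 4 of the list were called in these settings. miR-196a-3p, miR-615-3p and miR-615-5p were not tested.

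The miR-29 family is the other well-known group of miRNAs that repress DNA methyltransferase mRNAs, and all 3 members were tested and called lower. Their median log2 fold change was −0.57 beside −0.34 over all tested miRNAs, and 50.7% of those were called lower. miR-29a-3p fell from 8667 ± 1315 to 5785 ± 980 scaled counts (n = 3 per group; log2 fold change −0.58 ± 0.17, edgeR adjusted p = 0.00196). miR-29c-3p fell from 773 ± 24.0 to 519 ± 52.5 (n = 3 per group; −0.57 ± 0.17, edgeR adjusted p = 0.00189). miR-29b-3p, the most abundant of these probes by count, had 21017 ± 2615 and 16203 ± 1328 (n = 3 per group; −0.38 ± 0.16, edgeR adjusted p = 0.0339). This last call was lost with TMM (adjusted p = 0.981), DESeq2 size factors (0.922), the total miRNA count (0.173), background subtracted (0.114), the deposited table scaled (0.103), no filter (0.114) and without siAPE1 replicate 1 (0.116), within a range of 2.85e-06 to 0.981 over all alternatives. Whether the probes of the miR-29 family share signal was not tested either, so their calls may not be separate. The falls of all 3 were smaller than that of miR-148a-3p, whose own difference from them was not tested.

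The miRNAs most like each member over the 6 libraries were found by Pearson correlation of log2(scaled count + 1). The points share libraries and scaling factors, and the group difference alone makes r high for any miRNA that fell, so these values are descriptions. The closest to miR-148a-3p were miR-487b-3p (r = 0.987), miR-376a-3p (r = 0.986) and miR-495-3p (r = 0.985). All 3 are encoded in the imprinted 14q32 cluster, and their log2 fold changes were −1.48, −1.34 and −1.17. In siAPE1 the mean of miR-487b-3p was 29.2 scaled counts, where the negative-control means were 29.5 to 33.6. It was thus at background there, and its fold change has no exact size. The closest to miR-148b-3p were miR-32-5p (r = 0.996), miR-136-5p (r = 0.985) and miR-34c-5p (r = 0.976), a p53-responsive miRNA. Their log2 fold changes were −0.997, −1.18 and −0.95. No p is given for the miRNAs picked in this way, since they were chosen by likeness to members that fell in the same libraries. In siAPE1 miR-136-5p and miR-34c-5p had means of 43.9 and 51.6 scaled counts, below the lowest scaled limit of 66.9. miR-148b-3p itself was at place 28 for miR-148a-3p, with r = 0.942.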

How the data were processed

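miRNAs were measured in 6 libraries (3 siSCR, 3 siAPE1) with the nCounter human v3 panel. For each library the authors deposited the unprocessed counts of every probe (798 miRNAs, 5 housekeeping mRNAs, 6 positive, 8 negative and 5 spike-in probes). The authors also deposited a table whose values are a score: among 126 probes with a score of at least 30 in all libraries, it was a straight line of the raw count for each probe, within a residual of 0.640, and its 24 control entries equalled the raw counts. How it was made is not given in the sources used here, although the paper's methods name NanoStringDiff. It was used as an alternative.

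The analysis was run in R 4.3.3. Each library's factor was its positive-control slope (on the standard nCounter concentrations, assumed) times the median housekeeping ratio after subtraction of the negative-control mean. The groups were compared with edgeR 4.0.16 (robust quasi-likelihood test, two-sided, scaling factors as offsets, checked on simulated data). The p-values were adjusted by Benjamini-Hochberg over the 152 tested miRNAs, with a threshold of 0.1. The study used this limit on its q-values together with a cutoff of 1 on the absolute log2 fold change, which was not applied to the calls here. Of the miRNAs called lower here, 14 fell at least 2-fold. Alternatives used DESeq2 1.42.0 and limma 3.58.1, other scalings, limits and filters, the subtraction of background with a floor of 1, a replicate block, and each library left out.

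Named miRNAs were the members, panel miRNAs of the same seed with opposite arms, 3 lists (seed letters elsewhere, HOX clusters, miR-29), the 3 most correlated miRNAs of each member and the neighbours in the order of log2 fold change. The members and lists were chosen with earlier results of these data known, and no p is given for the members or for the miRNAs picked by correlation with them. The labels do not say whether replicates were separate cultures, although the paper speaks of biological replicates, so the spread behind each p is that between these libraries and may be technical. Within groups no pair of libraries was a duplicate (chi-square per degree of freedom 5.24 to 17.2).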

Additional observations from a re-analysis of the deposited data

How the results depend on the processing

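Background limits the size of the fall of miR-148a-3p, since its 3 siAPE1 counts were not above the limit of their libraries. Its log2 fold change of −2.75 became −2.39 with TMM, −2.40 with DESeq2 size factors, −3.16 with positive controls only, −2.53 with the total miRNA count, −4.20 with the negative-control mean subtracted, −4.53 in the deposited score table and −4.26 in that table scaled, an alternative chosen after seeing the data. That of miR-148b-3p, −0.80, became −0.46 with TMM, −0.47 with DESeq2 size factors, −1.25 with positive controls only and −1.16 in the deposited table. The difference of both, −1.95, became −3.30 with background subtracted, −3.36 in the deposited table and −3.37 in that table scaled. The lower bound of the fall, 4.48-fold, was 3.49-fold with a limit of 3 SD. Without the highest negative control the value was 6.52-fold, with the limit standing in for the count of siAPE1 replicate 3 only. Both members kept their direction in every setting run. Relative to the median of the tested miRNAs, the −2.42 of miR-148a-3p, which a change of scaling cannot move by much, became −3.73 with background subtracted and −3.78 in the deposited table. miR-152-3p, untested, had a log2 difference of −0.21 between group means and −0.17 in the fit with no filter.

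The 15 tested miRNAs called higher became 47 with TMM and 47 with DESeq2 size factors, 6 with positive controls only, 32 with the total miRNA count, 7 in the deposited table, 78 with no filter and 40 with a limit without the highest negative control. The 77 called lower became 46, 50 and 128 with TMM, DESeq2 size factors and positive controls only. Of the miRNAs with the seed letters elsewhere, 2 were called, and 1 with TMM, DESeq2 size factors, the total miRNA count, background subtracted, the deposited table scaled, no filter or a limit of 3 SD. The call that was lost was that of miR-130b-3p, which with the limit of 3 SD was no longer tested. With the DESeq2 test the count stayed at 2, but miR-130b-3p lost its call (adjusted p = 0.215) while miR-106b-5p passed (0.0929).

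When each library was left out in turn, the log2 fold change ran from −2.82 to −2.70 for miR-148a-3p and from −0.88 to −0.73 for miR-148b-3p, and their difference from −2.07 to −1.82. The calls ran from 8 (without siSCR replicate 1) to 20 higher and from 61 to 98 lower, from 1 to 3 for the seed letters elsewhere, stayed at 3 for the HOX list and ran from 2 to 3 for miR-29. Replicate numbers did not pair the libraries (correlations of same-numbered deviations −0.59, −0.01 and −0.49). Between libraries of unlike number these correlations ran from −0.18 to 0.61, the highest for siSCR replicate 3 with siAPE1 replicate 1. Whether such libraries share a batch was not tested. With the replicate block the log2 fold changes were −2.75 and −0.80, their difference −1.95, and 20 miRNAs were called higher and 96 lower.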

Other observations

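In the deposited score table, miR-148a-3p had scores of 402, 524 and 360 in siSCR and 20, 26 and 10 in siAPE1, and miR-148b-3p had 510, 570 and 317 against 189, 214 and 201. The scores rose linearly with the raw counts over the 6 libraries, with a slope of 1.26 for miR-148a-3p and 0.909 for miR-148b-3p, and they reached 0 at 30.2 and 26.7 raw counts. The ratio of miR-148a-3p to miR-148b-3p in scores was 0.788, 0.919 and 1.14 in siSCR and 0.106, 0.121 and 0.0498 in siAPE1. Since slope and zero differ between the probes, the ratio bears on the difference between groups only.

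The summed scaled counts of the epithelial marker miRNAs were 260.2 to 312 in siSCR and 236 to 301 in siAPE1, with overlapping ranges. Those of the blood markers were 94.8 to 107 and 104 to 136, which also overlapped. Those of the endothelial or stromal markers, of which miR-126-3p alone was above the limit, were 620.3 to 905 in siSCR and 465 to 520.5 in siAPE1, and their part in the falls of the members was not tested.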
